A study of Mus musculus with 12 samples.

Results

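The comparison described here sets L12YT-ECKO lung endothelial cells, which carry conditional alleles of Lats1, Lats2, Yap1 and Wwtr1 (the gene for TAZ), against wild-type (WT) lung endothelial cells. Its samples are the 4 libraries titled as LATS1/2 and YAP/TAZ knockouts and the 4 titled as WT, 8 of the 12 libraries of the series. All cells came from C57BL/6J mice at postnatal day 5 and were isolated from the lung by fluorescence-activated cell sorting. The WT genotype is given as wild type without further detail, so whether those mice carried Cre or received its inducer is not stated. L12YT-ECKO mice carry VE-cadherin-CreERT2 and 4 floxed genes, labelled Lats1f/f and Lats2 f/f together with Yapf/f and TAZf/f. The third group of the series, L12-ECKO, has the same driver with Lats1f/f and Lats2 f/f and lists no Yap1 or Wwtr1 allele. It enters below where a result differs between the knockouts. CreERT2 is a recombinase that acts once an estrogen receptor ligand is given, and the VE-cadherin driver restricts it to endothelial cells. The labels say nothing of the agent, dose and day of induction, of the sort gate or of whether each library came from 1 animal, so p-values measure the spread between these libraries, which may be technical.

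The Hippo pathway is a kinase cascade in which MST kinases activate LATS1 and LATS2, and LATS kinases phosphorylate YAP and TAZ so that they are kept out of the nucleus or degraded. Freed of LATS, YAP and TAZ bind TEAD transcription factors and drive genes for matrix, cytoskeletal and growth-control proteins, of which Ctgf and Cyr61 are the usual readouts. In developing vessels YAP and TAZ are known for roles in sprouting, junction turnover and proliferation. Deleting all 4 genes removes the kinases together with the co-activators they restrain.

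Expression was read with a 3-prime tag method, which counts a short stretch at the end of each transcript, and each value is the authors' normalized log2 expression, so that a difference of 1 is a doubling. Depth per library is unknown. A gene listed at 0 may have been missed. Genes listed above 0 numbered 11052 to 11229 in the WT libraries and 11291 to 12971 in the L12YT-ECKO libraries, with no overlap, and the lowest value above 0 was 3.01 to 3.16 in WT and 0.13 to 2.77 in L12YT-ECKO. The L12YT-ECKO libraries therefore list more low values. L12YT-ECKO replicates 3 and 4 come from tables in which a block of rows is displaced, a trait of how the tables were made that no WT table has. The cells carried endothelial identity in both groups. Egfl7, which encodes a protein secreted by endothelium, had the highest value, 17.72, in all 8 libraries. Values appear scaled to a common distribution, which gives every library the same top value, so this equality does not show equal levels. The summed level of 27 endothelial markers, Egfl7 among them, was 18.58 to 18.62 in WT and 18.55 to 18.69 in L12YT-ECKO on the log2 scale. Pecam1, the adhesion molecule CD31, lay between 14.66 and 15.20. All 27 markers were above 0 in every one of these libraries. Markers of other cells were present. The largest sums were those of 14 red cell and platelet markers, at 15.18 to 17.77 in WT and 15.38 to 17.3 in L12YT-ECKO. Those of 17 mesenchymal markers were 13.86 to 14.66 in WT and 14.11 to 15.07 in L12YT-ECKO. Summed levels of 17 epithelial markers were 11.87 to 13.59 in WT and 11.56 to 13.70 in L12YT-ECKO, and those of 21 immune markers 7.33 to 11.87 and 7.5 to 10.39. The 15 liver markers set 2 libraries apart: 14 of 15 were above 0 in each of L12YT-ECKO replicates 3 and 4 and 1 to 6 in the other 6 libraries, and their summed levels were 11.19 and 10.65 in those 2, against 8.52 and 9.43 in L12YT-ECKO replicates 1 and 2 and 8.06 to 9.92 in WT. Values over L12YT-ECKO replicates 1 and 2 alone are given beside several results below. In L12-ECKO, used below for comparison, the immune sum was 16.49 in replicate 1 and 9.63, 8.07 and 7.71 in replicates 2 to 4. The liver sums of L12-ECKO replicates 1 to 4 were 9.12, 11.96, 12.44 and 10.01.

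**Figure D1:**
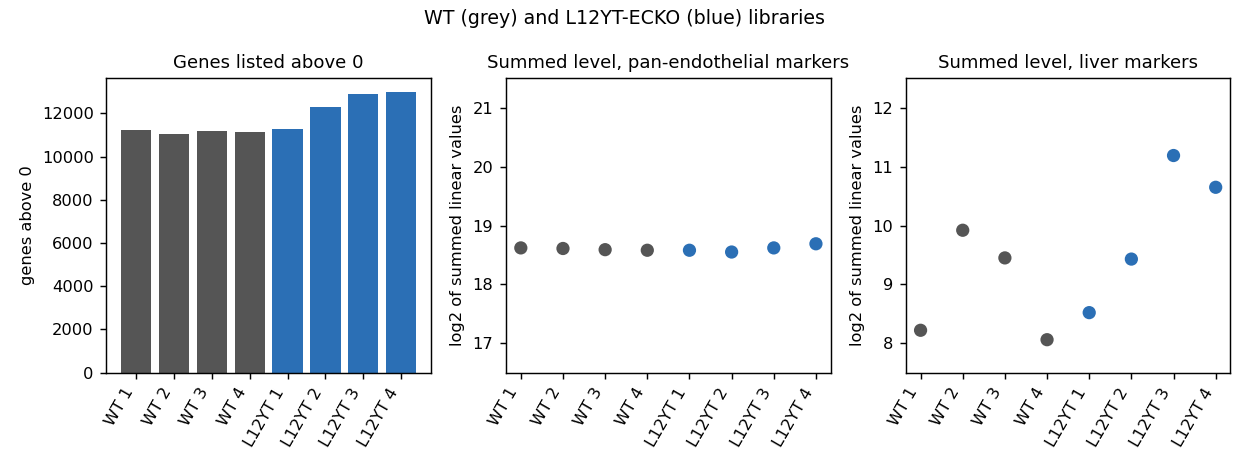
Number of genes listed above 0 (left), summed level of 27 pan-endothelial markers (middle) and of 15 liver markers (right) in each WT (grey) and L12YT-ECKO (blue) library, the sums on the log2 scale. The 4 L12YT-ECKO libraries list 11291 to 12971 genes above 0, all more than the 11052 to 11229 of WT; the endothelial sum varies by little, and the liver sum is highest in L12YT-ECKO replicates 3 and 4.

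The targeted genes were examined first. Wwtr1 (mm10 chromosome 3, 57455649 to 57575910, protein coding) was 12.01, 11.56, 11.84 and 11.85 in WT replicates 1 to 4 and 8.16, 8.72, 9.01 and 9.37 in the L12YT-ECKO replicates. Every L12YT-ECKO library lay more than 2 units under every WT library, and Wwtr1 fell by 3.0 (SE 0.350, limma adjusted p = 0.000662). In bulk samples such as these, fewer cells with a transcript and less of it per cell cannot be told apart. Yap1 (chromosome 9, 7931999 to 8004596, protein coding) was 9.88, 10.02, 9.81 and 9.46 in WT and 7.96, 8.01, 6.69 and 8.2 in L12YT-ECKO. These groups did not overlap either, and the difference was -2.08 (SE 0.406), but at a limma adjusted p of 0.184 over all genes it was not called. Neither gene was listed at 0 in any L12YT-ECKO library.

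Lats1 (chromosome 10, 7681214 to 7716460) was 6.99, 5.32, 5.5 and 7.45 in WT and 7.9, 0, 7.11 and 7.53 in L12YT-ECKO. Lats2 (chromosome 14, 57689662 to 57758388) was 8.42, 9.22, 9.34 and 8.76 in WT and 8.7, 8.63, 8.99 and 9.57 in L12YT-ECKO. Both kinases overlapped between the groups, with limma adjusted p of 0.964 and 0.993. Which exons were removed is not stated, and a tag at the 3-prime end outside them checks nothing. Lats2 was higher in the L12-ECKO libraries, at 9.71 to 10.33, than in any L12YT-ECKO library, with a difference of -0.96 (limma adjusted p = 0.686).

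Of 11634 genes tested, limma called 1, or 0.0086%, at an adjusted p under 0.05, and that gene was Wwtr1. No gene was called higher. Without adjustment, 481 genes (4.13%) were higher and 245 (2.11%) lower at p under 0.05, and the groups did not overlap for 295 genes higher in L12YT-ECKO (2.54%) and 252 lower (2.17%). The difference lay above 0 for 54.3% of genes and below 0 for 45.7%, with a median of 0.08. These shares are the background for every group of genes below. Over L12YT-ECKO replicates 1 and 2 alone, 6280 of 11634 genes still lay above the WT mean, but at unadjusted p under 0.05 the order turned, with 223 genes higher and 305 lower. With the displaced rows as a covariate the counts were 353 and 347, and Wwtr1 was the gene called in both cases.

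Genes listed low differed least precisely. In the lowest-level 20% of tested genes by level the median SD within a group was 2.94 in WT and 2.42 in L12YT-ECKO, against 0.39 and 0.34 in the highest 20%. The median difference was 0.19 in the lowest 20% and 0.02 in the highest. In the plot of difference against level, the genes below about 6 spread over several units and Wwtr1 and Yap1 lie at levels where few genes differ as much.

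**Figure D2:**
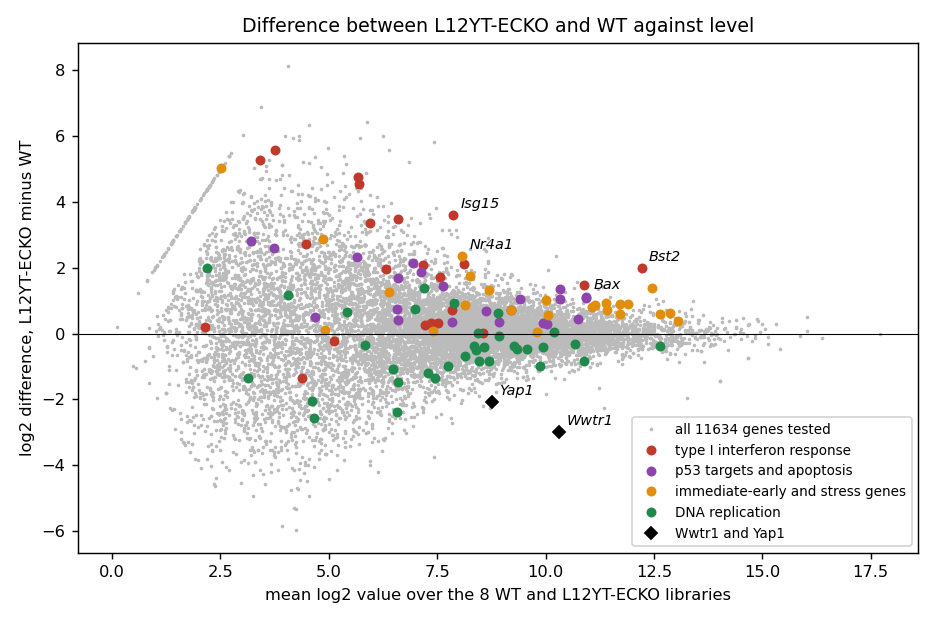
Log2 difference between L12YT-ECKO and WT (vertical) against the mean log2 value over the 8 libraries (horizontal) for all 11634 genes tested, with 4 gene lists in colour and the 2 targeted co-activator genes in black. The straight edge at the upper left is formed by genes listed at 0 in every WT library; Wwtr1 at -3.0 and Yap1 at -2.08 lie below the cloud at their level, and interferon genes lie mostly above 0.

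The next question was whether targets of YAP and TAZ returned to the wild-type level when the co-activators were removed with the kinases. Among 22 listed targets 18 were tested; 13 lay higher and 5 lower in L12YT-ECKO than in WT, 1 was higher at unadjusted p under 0.05, none was separated between the groups and none was called, with a median difference of 0.43. Ctgf (chromosome 10, 24595442 to 24598683), which encodes the matricellular protein CCN2, was 5.83, 7.68, 9.08 and 7.89 in WT and 9.48, 8.7, 10.16 and 9.96 in L12YT-ECKO. Its groups overlapped, since WT replicate 3 lay above L12YT-ECKO replicate 2, and the difference was 1.95 (SE 0.617, limma adjusted p = 0.673). Cyr61 (chromosome 3, 145646976 to 145649981), which encodes CCN1, was 7.48, 7.14, 8.62 and 8.07 in WT and 7.59, 8.32, 9.51 and 8.88 in L12YT-ECKO, a difference of 0.75 (SE 0.507, limma adjusted p = 0.835). Over L12YT-ECKO replicates 1 and 2 Cyr61 lay 0.13 above the WT mean, and over replicates 3 and 4 1.36. Ankrd1, a nuclear repeat protein often used as a YAP readout, was near the limit in both groups, at 4.08, 0, 0 and 4.53 in WT and 3.99, 1.39, 2.47 and 1.28 in L12YT-ECKO.

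Other targets were scattered. Igfbp3, which encodes an IGF-binding protein, was 5.3, 5.18, 6.74 and 7.51 in WT and 8.58, 7.78, 6.81 and 6.94 in L12YT-ECKO. Arhgef17, a guanine nucleotide exchange factor, was 7.68, 8.77, 6.53 and 7.52 against 8.97, 8.06, 9.3 and 8.65. Gadd45a, a stress-induced cell cycle regulator, was 0, 5.37, 3.08 and 0 against 7.27, 3.31, 5.35 and 3.86. All 3 overlapped between the groups, with limma adjusted p of 0.823, 0.798 and 0.826.

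Against L12-ECKO, which by its label lacks the LATS kinases and keeps YAP and TAZ, several targets were lower. With limma, 8 of 11634 genes (0.0688%) were called between L12YT-ECKO and L12-ECKO, and 3 of them are among the 18 targets. The difference was -4.23 for Ctgf (SE 0.617, adjusted p = 0.0190), -3.47 for Cyr61 (SE 0.507, adjusted p = 0.00522) and -1.58 for Crim1, a transmembrane protein with cysteine-rich repeats (SE 0.274, adjusted p = 0.0291). 6 targets were lower at unadjusted p under 0.05, where 2.1% of all genes were, and none higher. The call of Ctgf was lost with sex as a covariate (adjusted p = 0.0816), with the displaced rows as a covariate (adjusted p = 0.0548) and with L12YT-ECKO replicates 1 and 2 alone (adjusted p = 0.105), at differences of -4.18, -4.18 and -4.71. Crim1 was not refitted under these alternatives. With sex read from Xist above Ddx3y, L12-ECKO replicates 2, 3 and 4 were female, as were L12YT-ECKO replicate 3 and WT replicate 4. The tables of L12-ECKO replicates 2, 3 and 4 also have displaced rows, so neither trait was balanced between the knockouts.

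The other called genes were the targeted Wwtr1 and Yap1, Apln, Fam101b and Cldn5. Apln, which encodes the ligand of the apelin receptor and marks tip cells, was 10.12, 9.96, 10.55 and 11.23 in WT, 10.80, 10.96, 11.05 and 11.48 in L12YT-ECKO and 12.55 to 13.37 in L12-ECKO. It fell by 2.01 from L12-ECKO (SE 0.297, limma adjusted p = 0.00522) and was 0.61 above WT (limma adjusted p = 0.800). Fam101b, an actin regulator of the refilin family, was 10.54 to 11.13 in WT, 10.77 to 11.14 in L12YT-ECKO and 12.36 to 13.17 in L12-ECKO, so that its L12YT-ECKO values fell inside or next to the WT range.

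Cldn5, the main claudin of endothelial tight junctions, went the other way. It was 14.33, 14.25, 14.11 and 14.56 in WT, 14.79, 14.63, 14.79 and 14.93 in L12YT-ECKO and 13.30 to 14.33 in L12-ECKO. The L12YT-ECKO libraries lay above both other groups, 1.14 above L12-ECKO (SE 0.209, limma adjusted p = 0.0401) and 0.47 above WT (SE 0.209, limma adjusted p = 0.760). These genes were chosen by their call between the knockouts, so their distance from L12-ECKO follows from the choice, and a difference from WT that misses the threshold does not show that the levels are equal. Both differences use the same L12YT-ECKO libraries, and the comparison of L12-ECKO with WT also shares the WT libraries.

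**Figure D3:**
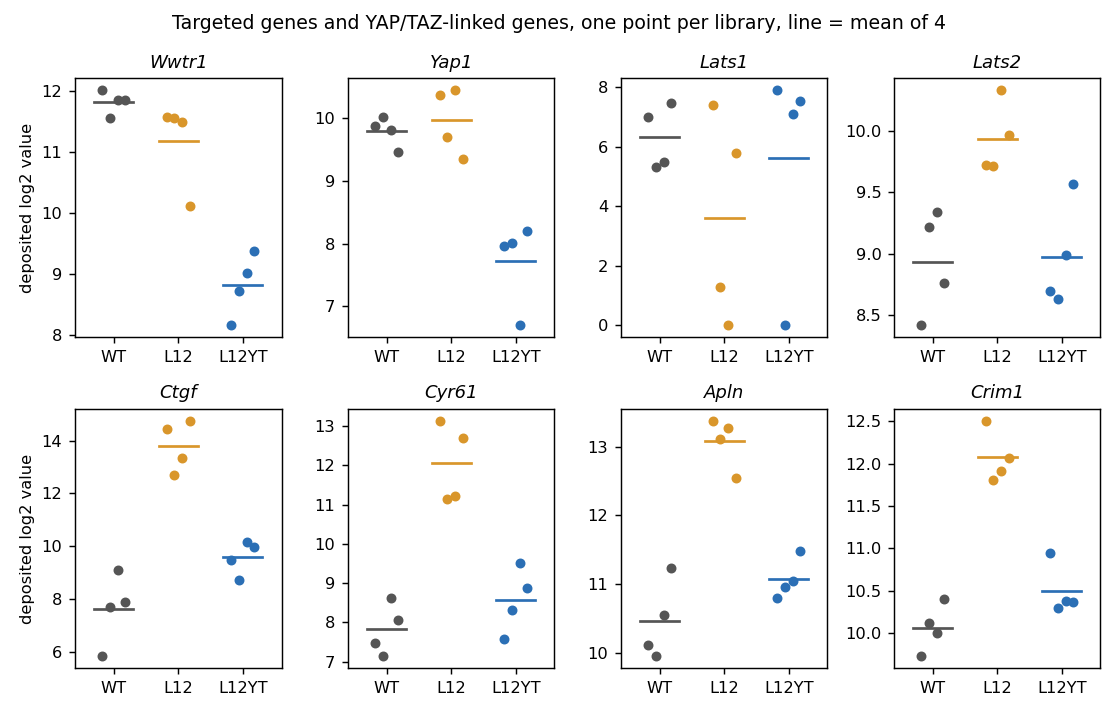
Deposited log2 values of the 4 targeted genes, Ctgf, Cyr61, Apln and Crim1, 1 point per library in WT (grey), L12-ECKO (orange) and L12YT-ECKO (blue), with a line at the mean of 4. Wwtr1 and Yap1 are lowest in L12YT-ECKO, and Ctgf, Cyr61, Apln and Crim1 stand highest in L12-ECKO while L12YT-ECKO lies near the upper part of WT or just above it.

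Upstream of YAP and TAZ, 23 of 24 listed Hippo genes were tested; 18 lay higher and 5 lower, with a median of 0.3, none passed unadjusted p under 0.05, and 1 was separated. The median was 0.09 over L12YT-ECKO replicates 1 and 2 and 0.46 over replicates 3 and 4. That gene was Frmd6, a FERM-domain protein that activates the cascade, at 8.67, 8.78, 7.66 and 8.45 in WT and 8.85, 8.86, 9.26 and 9.35 in L12YT-ECKO (difference 0.69, SE 0.388, limma adjusted p = 0.824). Nf2, the tumour suppressor merlin, was 11.73, 10.66, 10.93 and 11.14 against 11.38, 10.87, 12.26 and 12.16 (adjusted p = 0.824), with the 2 high values in replicates 3 and 4. Stk3, which encodes the kinase MST2, was 9.4, 8.08, 7.35 and 9.25 against 7.72, 6.96, 8.65 and 7.58. Of the 5 tested TEAD and VGLL partners 4 lay lower and 1 higher, none at unadjusted p under 0.05; Tead1 was 9.4, 9.01, 9.55 and 10.54 in WT and 9.34, 9.82, 9.1 and 8.35 in L12YT-ECKO.

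Among the pathway lists, the one with the highest median above WT held genes of the type I interferon response. Interferon signals through a complex that holds STAT2 and IRF9, binds a GAAA-repeat element and switches on antiviral effectors. Of 28 listed genes 22 were tested; 20 lay higher and 2 lower, 11 were higher at unadjusted p under 0.05 (background 4.13%), 5 were higher with no overlap (background 2.54%), and the median difference was 1.98 against 0.08 over all genes. No member was called. The medians of the list relative to the WT mean were 1.68, 1.71, 2.31 and 2.14 in L12YT-ECKO replicates 1 to 4 and 0.64, 0.15, 0.17 and -0.61 in WT. Since many of these genes are listed at 0 in some library, the 10 members above 0 in all 12 libraries were also taken alone, and all 10 lay higher, with a median of 1.1. In the comparison of L12-ECKO with WT, which shares the WT libraries, 21 of 22 lay higher with a median of 1.61; between the 2 knockouts the median was 0.24 and 1 member was higher and none lower at unadjusted p under 0.05, where 3.98% and 2.1% of all genes were.

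The promoters of the effector genes that were separated between the groups show the element that interferon-activated factors bind. RefSeq windows of 300 bases (250 before to 50 after the transcript start, GRCm38.p6) were searched for GAAA, any 2 bases and GAAA again, on both strands, with overlapping matches allowed. The letters were found in 1131 of 32851 promoter windows (3.44%), and among the 22 tested interferon genes 17 had a window and 9 held a match (Isg15, Ifit1, Ifit3, Rsad2, Bst2, Stat2, Ddx58, Ifih1 and Ddx60). The 3.44% counts windows, while a listed gene was counted if any of its windows held a match, so the 2 shares are unlike. The list is made of interferon response genes, so its share is a trait of the list and not of the difference between the groups. A match is a description of the letters, and factor binding was not measured here. Matches are in capitals in the windows of 4 of the 5 separated members below, at chr4:156200769-156201068 (minus strand) for Isg15, chr8:71537423-71537722 (minus strand) for Bst2, chr12:26456403-26456702 (minus strand) for Rsad2 and chr19:34640639-34640938 (plus strand) for Ifit1; the remaining one, Irf9, has 2 windows with no match.
Isg15: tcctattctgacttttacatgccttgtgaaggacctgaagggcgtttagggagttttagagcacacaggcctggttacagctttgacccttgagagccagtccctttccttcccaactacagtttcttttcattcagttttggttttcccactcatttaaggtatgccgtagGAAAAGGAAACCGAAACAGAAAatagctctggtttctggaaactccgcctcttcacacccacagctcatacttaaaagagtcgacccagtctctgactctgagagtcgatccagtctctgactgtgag
Bst2: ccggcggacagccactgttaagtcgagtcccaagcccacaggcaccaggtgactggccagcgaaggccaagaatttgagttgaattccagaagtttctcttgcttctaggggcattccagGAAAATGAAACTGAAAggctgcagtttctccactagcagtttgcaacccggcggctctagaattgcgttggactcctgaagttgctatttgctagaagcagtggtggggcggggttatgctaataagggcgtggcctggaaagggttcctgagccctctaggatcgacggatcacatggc
Rsad2: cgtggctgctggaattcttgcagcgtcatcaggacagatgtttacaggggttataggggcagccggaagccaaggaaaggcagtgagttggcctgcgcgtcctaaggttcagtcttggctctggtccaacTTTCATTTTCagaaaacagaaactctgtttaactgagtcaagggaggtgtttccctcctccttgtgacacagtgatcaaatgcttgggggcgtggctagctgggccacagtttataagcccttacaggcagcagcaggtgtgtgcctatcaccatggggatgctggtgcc
Ifit1: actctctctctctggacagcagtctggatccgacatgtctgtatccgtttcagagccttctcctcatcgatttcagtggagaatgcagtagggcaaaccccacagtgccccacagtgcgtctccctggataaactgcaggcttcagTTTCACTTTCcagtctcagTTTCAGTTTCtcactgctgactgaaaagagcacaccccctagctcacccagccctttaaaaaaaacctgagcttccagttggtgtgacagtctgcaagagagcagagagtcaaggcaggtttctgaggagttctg

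Isg15, the ubiquitin-like modifier with 3 matches in the window above, was 7.2, 7.04, 4.66 and 5.39 in WT and 9.2, 8.52, 11.18 and 9.79 in L12YT-ECKO, a difference of 3.6 (SE 0.691, limma adjusted p = 0.184). Bst2, or tetherin, which holds budding virus at the cell surface, was 10.12, 11.33, 11.86 and 11.57 against 13.11, 12.82, 13.95 and 12.98, a difference of 1.99 (SE 0.381, adjusted p = 0.184). In both, every L12YT-ECKO library lay above every WT library. They and Yap1 were among the genes that shared the smallest adjusted p after Wwtr1. In the comparison of L12-ECKO with the same WT libraries, where limma called 56 genes (0.481%), both were called, at 3.96 for Isg15 (adjusted p = 0.0167) and 1.96 for Bst2 (adjusted p = 0.0331). Rsad2, the antiviral enzyme viperin, was 7.89, 7.29, 5.94 and 7.11 against 9.27, 9.1, 9.34 and 8.93 (difference 2.1, adjusted p = 0.499).

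Irf9, the DNA-binding subunit of the interferon-activated complex, was 11.41, 10.24, 9.64 and 9.31 in WT and 11.44, 11.81, 11.52 and 11.76 in L12YT-ECKO (difference 1.48, limma adjusted p = 0.499), with WT replicate 1 just under the lowest L12YT-ECKO library. Ifit1, which binds foreign RNA ends, was listed at 0 in WT replicates 1, 2 and 4 and at 3.08 in replicate 3, and was 6.26, 3.22, 7.55 and 7.14 in L12YT-ECKO. Ifit3, its partner, was 3.9, 0, 0 and 0 against 7.49, 3.1, 8.51 and 7.16. For both, L12YT-ECKO replicate 2 was the lowest of its group.

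The other members past unadjusted p under 0.05 overlapped between the groups. Irf7, the transcription factor that amplifies interferon production, was 8.35, 0, 7.42 and 3.72 against 6.98, 8.94, 8.74 and 8.71. Oasl2, of the oligoadenylate synthetase family, was 7.5, 3.16, 0 and 3.04 against 7.23, 7.74, 8.2 and 8.71, and Rtp4, an interferon-induced chaperone, was 6.97, 7.23, 6.68 and 5.92 against 6.29, 8.57, 9.31 and 9.52. Cmpk2 and Ifi44 completed the 11. The 2 members that lay lower were Usp18, the protease that removes ISG15, at 5.52, 6.97, 3.08 and 4.66 against 0, 1.39, 7.38 and 6.04, and Ddx60, an RNA helicase, at 7.21, 5.88, 7.8 and 0 against 0, 6.15, 7.2 and 6.68.

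The interferon genes lay above WT both in the L12YT-ECKO libraries with few liver transcripts and in those with many. Over L12YT-ECKO replicates 1 and 2 the members lay a median of 1.68 above the WT mean, and over replicates 3 and 4 2.16. In the fit with the 7 libraries that have no displaced rows the median was 1.48. Immune markers moved with the libraries too: over replicates 1 and 2, 9 of the 10 tested immune markers lay above the WT mean, with a median of 1.18, and over replicates 3 and 4 5 of 10 did, with a median of -0.39. The macrophage gene C1qa was 3.09 above the WT mean over replicates 1 and 2 and 0.12 over replicates 3 and 4. Cd3e, Marco, Nkg7 and Ncr1 were listed at 0 in all 8 libraries, and Ptprc was above 0 in 1 WT and 3 L12YT-ECKO libraries. The part of immune cells in the interferon result was not tested.

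**Figure D4:**
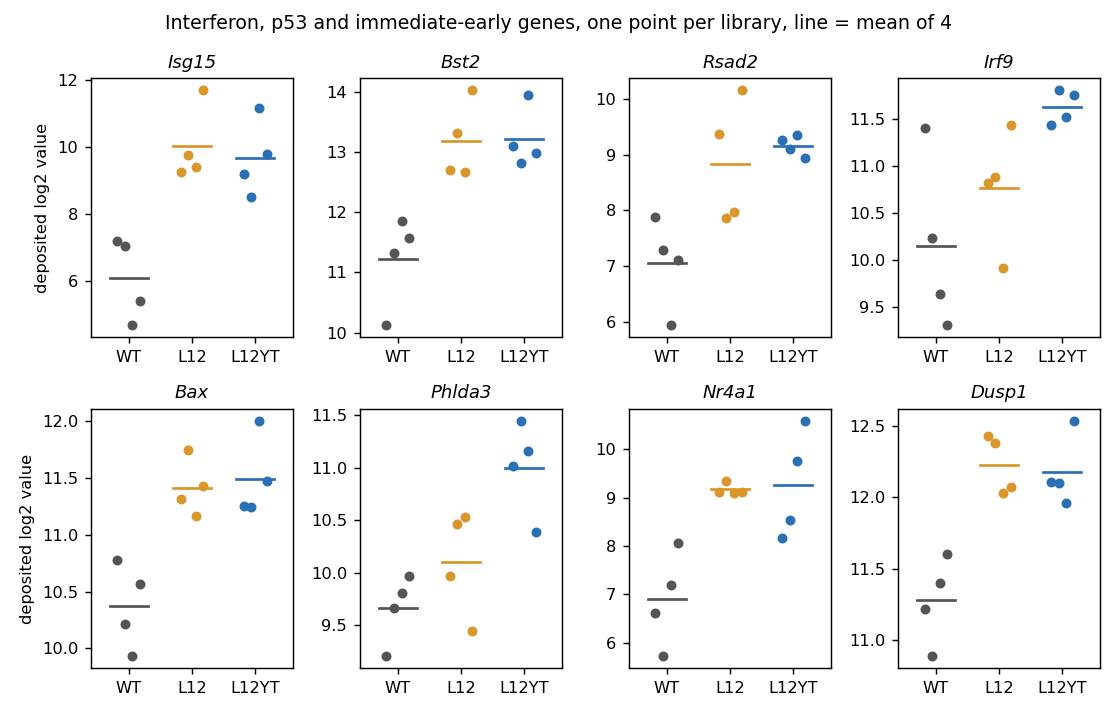
Deposited log2 values of interferon genes (Isg15, Bst2, Rsad2, Irf9), p53 targets (Bax, Phlda3) and immediate-early genes (Nr4a1, Dusp1), 1 point per library, with a line at the mean of 4 for WT (grey), L12-ECKO (orange) and L12YT-ECKO (blue). In each panel the 4 L12YT-ECKO points lie above the 4 WT points, which follows from showing genes with no overlap. Other members of these lists, such as Irf7, Cdkn1a and Klf4, overlap. None of the genes shown was called between L12YT-ECKO and WT, while Isg15 and Bst2 were called between L12-ECKO and WT.

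Targets of p53 formed the next list. p53 answers DNA damage and other stress by inducing genes of growth arrest and apoptosis. All 22 tested members of 24 lay higher, with a median of 1.05. Of these, 7 passed unadjusted p under 0.05 (background 4.13%) and 4 had no overlap (background 2.54%). The 17 members above 0 in all 12 libraries had a median of 0.75 and all lay higher. The medians by library were 1.13, 1.21, 1.14 and 0.86 in L12YT-ECKO and -0.11 to 0.16 in WT. L12-ECKO lay 0.76 above WT by median, with the same WT libraries, and the median between the knockouts was -0.02.

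Bax, the pore-forming effector of apoptosis, was 10.78, 10.21, 9.93 and 10.56 in WT and 11.26, 11.25, 12.004 and 11.47 in L12YT-ECKO (difference 1.12, SE 0.277, limma adjusted p = 0.479). Phlda3, which restrains AKT, was 9.21, 9.66, 9.81 and 9.97 against 11.02, 11.45, 11.16 and 10.39 (difference 1.34, SE 0.333, adjusted p = 0.479). Zmat3, an RNA-binding p53 target, was 6.47, 4.14, 7.33 and 5.59 against 7.93, 7.86, 7.85 and 8.44, and Bbc3, the BH3-only protein PUMA, was 8.81, 8.46, 9.05 and 9.23 against 10.34, 9.34, 10.38 and 9.67. These are the 4 members whose groups were separated. Cdkn1a, the cell cycle inhibitor p21, overlapped: it was 9.85, 9.41, 11.22 and 11.10 in WT and 13.27, 11.26, 10.84 and 10.59 in L12YT-ECKO, highest in replicate 1.

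The p53-induced death receptor gene Tnfrsf10b was 4.33, 5.91, 8.82 and 5.71 against 8.3, 7.98, 8.29 and 7.75, and Aen, a p53-induced nuclease, was 5.8, 6.61, 8.32 and 6.96 against 8.97, 8.44, 8.15 and 7.87. In both genes WT replicate 3 reached the L12YT-ECKO range. Ddit4, an inhibitor of mTOR signalling, was 9.36, 9.97, 10.29 and 9.63 against 11.86, 11.05, 10.99 and 9.56, where L12YT-ECKO replicate 4 lay within WT. Mdm2, the ubiquitin ligase that p53 induces against itself, was 8.89, 9.68, 10.38 and 10.19 against 9.85, 9.75, 10.58 and 10.27, and overlapped. The list held over L12YT-ECKO replicates 1 and 2, at a median of 1.14 above the WT mean, and over replicates 3 and 4, at 1.02.

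Immediate-early genes, which cells induce within minutes of a stimulus such as shear, growth factor or tissue dissociation, lay higher too: 24 of 24 tested, with a median of 0.88. Of these, 13 passed unadjusted p under 0.05 (background 4.13%) and 9 had no overlap (background 2.54%). By library the medians were 1.08, 0.48, 0.59 and 1.01 in L12YT-ECKO and -0.18 to 0.39 in WT. In L12-ECKO, set against the same WT libraries, 18 of 24 lay higher, with a median of 0.57. There 2 members, Klf6 and Socs3, were called (background 0.481%). By library the L12-ECKO medians were 1.56, 0.816, -0.025 and 0.094, so replicates 3 and 4 lay within the WT range. The median between the knockouts was 0.35. Nr4a1, a nuclear receptor, was 6.61, 5.72, 7.19 and 8.06 in WT and 8.16, 8.53, 9.76 and 10.58 in L12YT-ECKO (difference 2.36, SE 0.562, limma adjusted p = 0.469). Dusp1, a phosphatase that ends MAP kinase signals, was 11.22, 10.89, 11.40 and 11.61 against 12.11, 12.10, 11.96 and 12.54 (difference 0.9, SE 0.238, adjusted p = 0.499). Socs3, which blocks cytokine receptors, was 6.34, 6.5, 8.86 and 7.87 against 9.31, 9.27, 9.0 and 9.0.

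Several flow-responsive transcription factors are on that list. Klf6 was 10.53, 10.69, 10.80 and 10.63 in WT and 12.07, 11.20, 11.24 and 11.32 in L12YT-ECKO, and Klf2, a factor that laminar flow induces in endothelium, was 11.16, 11.26, 10.90 and 10.94 against 11.95, 11.60, 11.38 and 12.15. Both were separated, with limma adjusted p of 0.633 and 0.748. Klf4 was 12.49, 12.38, 13.22 and 12.14 against 13.54, 12.92, 13.08 and 13.24 and overlapped through WT replicate 3. In the list of SOXF, ETS and KLF factors 12 of 16 tested genes lay higher (background 54.3%), 4 of them at unadjusted p under 0.05 (background 4.13%). The 2 separated (background 2.54%) were Klf6 and Klf2, counted in the immediate-early list too. Past the unadjusted threshold with them and Klf4 was Sox7, a SOXF factor. It was 7.78, 7.74, 8.32 and 7.4 against 8.9, 8.3, 9.24 and 9.61, and overlapped through WT replicate 3.

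**Figure D5:**
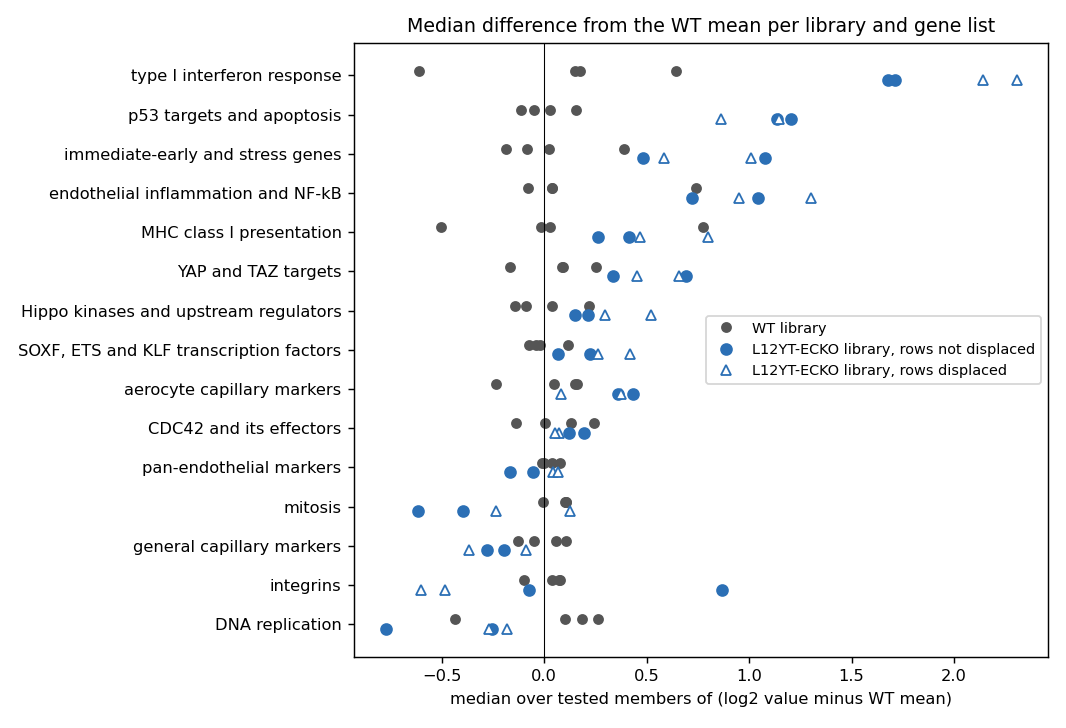
Median over the tested members of each list of the log2 value minus the WT mean, 1 point per library; WT libraries in grey, L12YT-ECKO libraries as filled circles (replicates 1 and 2) or open triangles (replicates 3 and 4, with displaced rows). The 4 L12YT-ECKO points lie to the right of all WT points for the interferon list (1.68 to 2.31), the p53 list (0.86 to 1.21), the immediate-early list (0.48 to 1.08) and the YAP and TAZ targets, and around WT for the pan-endothelial markers.

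Genes of cell division leaned the other way, with library medians that overlapped between the groups. Of 34 DNA replication genes tested, 25 lay lower and 9 higher, 2 of them lower at unadjusted p under 0.05 (background 2.11%), with a median of -0.44. By library the medians were 0.18, -0.44, 0.26 and 0.10 in WT and -0.77, -0.255, -0.27 and -0.18 in L12YT-ECKO. The median of L12-ECKO minus WT, with the same WT libraries, was -0.26. Mcm7, a subunit of the replicative helicase, was 10.65, 10.11, 10.28 and 10.44 in WT and 9.23, 9.22, 8.83 and 10.21 in L12YT-ECKO (difference -0.996, SE 0.411, limma adjusted p = 0.758), and Uhrf1, which maintains DNA methylation at the fork, was 11.61, 10.52, 11.21 and 11.89 against 10.11, 11.26, 10.14 and 10.41 (difference -0.83, adjusted p = 0.758). They overlapped through L12YT-ECKO replicate 4 for Mcm7 and replicate 2 for Uhrf1. Cdc6, which loads the helicase, was 9.0, 8.48, 8.02 and 7.5 against 7.07, 7.26, 7.09 and 7.66. Not all members leaned down: Rfc5, a clamp loader subunit, was 6.42, 5.91, 6.34 and 7.3 against 7.58, 7.51, 8.09 and 8.4, higher with no overlap (adjusted p = 0.800).

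Of 30 mitosis genes 17 lay lower and 13 higher, with a median of -0.19, where 45.7% of all genes lay lower. Of the 17, 4 were lower at unadjusted p under 0.05 (background 2.11%) and 3 with no overlap (background 2.17%). The library medians were -0.004 to 0.108 in WT and -0.618 to 0.124 in L12YT-ECKO, where replicate 4 lay above every WT library. The median of L12-ECKO minus WT was -0.175. Mki67, the proliferation marker Ki-67, was 9.82, 10.72, 10.23 and 9.62 in WT and 8.87, 9.46, 8.64 and 9.04 in L12YT-ECKO (difference -1.1, SE 0.384, limma adjusted p = 0.726). Cenpe, a kinetochore motor, was 9.41, 9.62, 9.31 and 8.75 against 8.43, 8.33, 7.56 and 8.44 (adjusted p = 0.758). Cenpf, a kinetochore protein, was 10.52, 10.23, 9.97 and 9.32 against 8.34, 8.92, 9.38 and 9.33, and Nusap1, a spindle protein, was 10.95, 10.91, 12.14 and 10.43 against 10.49, 10.39, 10.66 and 9.76. Over L12YT-ECKO replicates 1 and 2 the mitosis genes lay a median of 0.43 under the WT mean, and over replicates 3 and 4 by 0.09.

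Lung capillaries hold general capillary cells and aerocytes, the large thin cells across which gas exchanges. Of 12 general capillary markers 8 lay lower and 4 higher, with a median of -0.33. Of the 8, 2 were lower at unadjusted p under 0.05 (background 2.11%) and 3 with no overlap (background 2.17%). The separated members were Sema3c, a guidance ligand, at 11.18, 11.16, 10.31 and 10.14 in WT and 10.09, 9.44, 8.98 and 9.72 in L12YT-ECKO (difference -1.14, SE 0.357, limma adjusted p = 0.633), Gpihbp1, which anchors lipoprotein lipase to the capillary wall, at 12.17, 11.97, 12.25 and 11.96 against 11.75, 11.74, 10.92 and 11.32, and Ptprb, a phosphatase of TIE2 and VE-cadherin, at 13.11, 13.02, 12.82 and 12.98 against 12.52, 12.52, 12.70 and 12.54. Cd93 and Cd36, the highest of the list, overlapped, at 14.44 to 14.79 for Cd93 and 12.96 to 13.92 for Cd36 in L12YT-ECKO.

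Of 12 aerocyte markers 10 lay higher and 2 lower, with a median of 0.23 and 1 higher at unadjusted p under 0.05. That was Emp2, a tetraspan membrane protein that lung epithelium also expresses, at 11.71, 11.73, 11.85 and 12.11 in WT and 12.50, 12.27, 12.74 and 13.33 in L12YT-ECKO, with no overlap and no call. Car4, the carbonic anhydrase that defines aerocytes, was 8.03, 10.26, 9.26 and 8.38 against 10.03, 9.69, 9.41 and 9.65, and Ednrb, an endothelin receptor, was 10.48, 11.12, 10.96 and 11.21 against 11.96, 11.29, 10.66 and 11.70. Against L12-ECKO the 2 capillary lists lay higher, with medians of 0.93 for the aerocyte list and 0.61 for the general capillary list, and 7 of 12 members of each were higher at unadjusted p under 0.05, where 3.98% of all genes were; 1 aerocyte member, Apln, was lower.

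Vessel growth and signalling genes showed few separated members. Among the angiopoietin genes, Angpt2, a ligand that destabilizes vessels, was 5.74, 4.14, 5.71 and 0 in WT and 7.27, 6.57, 6.88 and 7.27 in L12YT-ECKO, higher with no overlap (limma adjusted p = 0.758), while its receptor gene Tek was 12.54, 12.09, 12.22 and 11.97 against 11.41, 11.502, 11.75 and 12.11. Figf, which encodes the lymphatic growth factor VEGF-D, was 6.18, 6.28, 5.65 and 7.07 against 4.58, 3.02, 0 and 1.84, lower with no overlap (adjusted p = 0.758). The VEGF list's median was -0.56 over L12YT-ECKO replicates 1 and 2 and 0.17 over replicates 3 and 4. Vegfa was 12.64, 13.62, 12.61 and 12.96 against 12.47, 12.06, 12.57 and 12.78. Among tip cell genes Unc5b, a netrin receptor, was 10.59, 11.18, 11.58 and 10.93 against 11.95, 11.47, 12.14 and 11.67, and Pdgfb, which recruits pericytes, was 9.14, 9.86, 11.09 and 9.77 against 10.09, 10.32, 11.53 and 11.83.

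In the BMP list the inhibitor Smad7 was 11.38, 11.27, 10.98 and 10.63 in WT and 10.12, 10.58, 9.998 and 9.81 in L12YT-ECKO, lower with no overlap (difference -0.94, SE 0.332, limma adjusted p = 0.726), and Bmp2 was 3.9, 7.09, 8.88 and 6.48 against 8.88, 9.55, 8.08 and 8.4. The other 13 tested members of the 15 passed no unadjusted threshold. None of the 13 tested Notch genes did, and Nrarp, a Notch-induced feedback gene, was 10.42, 10.54, 11.504 and 11.58 against 11.41, 11.63, 11.65 and 11.57. The 20 tested genes of CDC42, the GTPase that shapes filopodia, and its effectors had a median of 0.06, with none past the unadjusted threshold.

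Adhesion and cytoskeleton genes were mixed. Among 11 tested integrins Itga1, a collagen receptor subunit, was 9.42, 9.13, 8.83 and 8.85 in WT and 7.81, 8.6, 6.53 and 7.2 in L12YT-ECKO (difference -1.52, SE 0.488, limma adjusted p = 0.633), and Itgb5, a vitronectin receptor subunit, was 5.44, 4.83, 4.1 and 5.89 against 8.93, 7.38, 8.13 and 6.42 (difference 2.65, SE 0.959, adjusted p = 0.727). Both were separated, in opposite directions. The list's median was -0.35 over all libraries and 0.4 over L12YT-ECKO replicates 1 and 2, so its sign changed with the libraries used. Filip1l, an actin-associated gene, was 10.97, 10.99, 10.89 and 11.45 against 10.45, 10.46, 10.31 and 9.78, lower with no overlap, and Srf, the factor that drives actin genes, was 8.75, 9.5, 9.59 and 10.20 against 10.37, 10.12, 10.84 and 10.33. Tjp1, the junction scaffold ZO-1, was 12.86, 12.48, 12.55 and 11.95 against 11.30, 11.71, 11.82 and 12.35.

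Outside the lists, the genes of smallest p among those with no overlap were taken, 12 in each direction with a mean of at least 5. Besides Isg15, Bst2, Nr4a1, Bax and Phlda3, the higher ones were Pim3, Trim11, Llgl1, Ppp2r3d, Syvn1, Eif4a2 and Gpn2. Pim3, a survival kinase, was 9.996, 10.37, 10.87 and 11.25 in WT and 11.80, 11.85, 12.40 and 12.11 in L12YT-ECKO (difference 1.42, SE 0.294, limma adjusted p = 0.229). Trim11, a ubiquitin ligase, was 6.97, 6.61, 7.87 and 8.86 against 9.64, 9.5, 10.10 and 9.87 (adjusted p = 0.300), and Llgl1, a cell polarity protein of the Scribble complex, was 10.71, 10.18, 10.57 and 10.70 against 11.20, 11.75, 12.31 and 12.29 (adjusted p = 0.387). Syvn1, the ubiquitin ligase of endoplasmic reticulum quality control, was 6.18, 7.66, 8.37 and 8.18 against 9.51, 9.87, 9.48 and 10.15 (adjusted p = 0.442).

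Besides Wwtr1 and Yap1, the lower ones were Immt, Clint1, Pphln1, Lepr, Daam1, C430049B03Rik, Nedd4, Atrx, Huwe1 and Ubap2l. Immt, a scaffold of mitochondrial cristae, was 12.37, 12.06, 12.05 and 11.78 in WT and 8.81, 10.93, 10.89 and 10.98 in L12YT-ECKO (difference -1.66, SE 0.387, limma adjusted p = 0.442), with replicate 1 far under the rest. Clint1, a clathrin adaptor, was 10.25, 10.31, 9.83 and 10.17 against 8.78, 9.11, 8.72 and 8.67 (difference -1.32, adjusted p = 0.479). Lepr, the leptin receptor, was 7.95, 9.34, 7.46 and 8.21 against 3.34, 6.12, 1.16 and 5.46 (difference -4.22, adjusted p = 0.481).

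Daam1, a formin that acts between WNT signals and actin, was 11.78, 11.66, 11.72 and 11.64 against 10.91, 10.56, 10.97 and 10.79, and its values were among the tightest of the set. C430049B03Rik is a noncoding transcript on the X chromosome, at 11.46, 11.41, 10.82 and 10.99 against 9.98, 10.72, 9.85 and 9.72. 3 regulators of protein turnover and chromatin were also on this list: Nedd4 and Huwe1, which are ubiquitin ligases, at 11.36 to 11.94 against 10.24 to 11.08 and at 10.72 to 11.11 against 9.81 to 10.11, and the chromatin remodeller Atrx, at 11.64 to 12.34 against 11.13 to 11.35. No gene of these 24 other than Wwtr1 passed the adjusted threshold.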

How the data were processed

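Lung endothelial RNA (total RNA extracted with Trizol, per the labels' protocols) was made into libraries with a Lexogen QuantSeq 3-prime kit and sequenced on an Illumina NextSeq. The authors deposited 1 table of log2 values per library; the submitters' processing notes name Bowtie2, edgeR and mm10, with roles and versions not given in the sources used here. That the values are logarithms scaled to a common distribution was read from the values. Of 24421 genes per table, 24394 were named alike in all tables; 34 rows were left out, 32 of them in a block displaced in 5 tables, and 24360 remained. Genes with a CPM of at least 1, computed from the unlogged values, in at least 4 libraries were tested: 11634 genes.

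limma 3.58.1 (R 4.3.3, statmod 1.5.0) was fitted to the log2 values as deposited over all 12 libraries with a term per group, a variance prior with trend and robust steps, and Benjamini-Hochberg adjustment over all genes tested, with a threshold of 0.05. The fit had 9 residual degrees of freedom. Without counts no interval for counting error was possible. The script was tested on simulated data in which 50 genes were changed at each log2 size. It recovered 3 of 50 at a change of 1, 15 at 2, 21 at 3 and 25 at 4, with 5 false calls. Many true changes of these sizes could therefore be missed. Named were the targeted genes with Ctgf, Cyr61 and Ankrd1, the 12 genes of smallest p in each direction with a mean of at least 5 and no overlap, up to 4 members of smallest p per pathway list, the 3 highest members per marker list, and any member of the 2 lists of largest and the 2 of smallest median; other genes named were chosen after their values were seen. The comparison and the 38 gene lists were chosen with earlier results of these data known. Equal replicate numbers did not pair libraries: deviations of equal-numbered WT and L12YT-ECKO libraries correlated at -0.047 to 0. Alternatives covered the filter, scale, floor, variance prior, displaced rows, sex, replicate number, centring and each library left out. Gene positions are from GENCODE on mm10 and promoter windows from RefSeq on GRCm38.p6. Some items are not reported here.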

Additional observations from a re-analysis of the deposited data

Results flagged for a closer look

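In 3 of 58 groups of 4 libraries, 1 library stood apart, with a gap to its nearest neighbour, as a share of the group's whole range, above Dixon's 95% critical value; chance gives about 1 in 20. Lats1 was listed at 0 in L12YT-ECKO replicate 2, a gap of 0.901 of the range, while the other 3 libraries lay at 7.11 to 7.90. Yap1 was lowest in L12YT-ECKO replicate 3, at 6.69, a gap of 0.838. Immt was lowest in L12YT-ECKO replicate 1, at 8.81, a gap of 0.958.

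Of the 8 genes called between the knockouts by limma's test of that difference, 4 are given again here. L12YT-ECKO minus L12-ECKO was -2.37 for Wwtr1, -2.25 for Yap1, -4.23 for Ctgf and -3.47 for Cyr61, with adjusted p of 0.00522, 0.0388, 0.0190 and 0.00522.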

How the results depend on the processing

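The count of genes called between L12YT-ECKO and WT was 1 under every alternative that kept all libraries and ranged from 1 to 3 with 1 library left out; the 3 came without WT replicate 1 and were Rbfox3, Ralgps2 and Wwtr1. With no trend and no robust step in the variance prior the 1 gene called was Neurl2, listed at 0 in all WT libraries, and Wwtr1 (-3.00) had an adjusted p of 0.0995. Leaving out 1 library gave -3.19 to -2.78 for Wwtr1 and, against L12-ECKO, -4.59 to -3.92 for Ctgf and -3.79 to -3.11 for Cyr61. The Ctgf call against L12-ECKO was lost without WT replicate 2 (adjusted p = 0.0666), L12-ECKO replicate 1 (0.0513), L12YT-ECKO replicate 1 (0.0768) or L12YT-ECKO replicate 2 (0.0982). It was also lost with a second logarithm (-0.48, 0.169), with no trend (-4.23, 0.178), with the displaced rows as a covariate (-4.18, 0.0548), with the 7 libraries without displaced rows (-5.34, 0.105), with sex as a covariate (-4.18, 0.0816) and with L12YT-ECKO replicates 1 and 2 only (-4.71, 0.105); Cyr61 was lost with no trend (-3.47, 0.178). Genes higher and lower at unadjusted p under 0.05 numbered 481 and 245, against 353 and 347 with the displaced rows as a covariate, 223 and 305 with L12YT-ECKO replicates 1 and 2 only, which was added after seeing the data, and 421 and 345 with values under 5 raised to 5. Of 124 named genes tested, 7 turned direction somewhere, none of them called: raising values to 5 gave 0.57 for Lats1, 0 for Ankrd1 and 0.23 for Usp18; the displaced rows as a covariate gave -0.20 for Lats2 and -0.32 for Ankrd1; the 7 libraries, and likewise L12YT-ECKO replicates 1 and 2 only, gave -0.27 for Lats2 and 0.11 for Tie1. With 1 library left out, Lats1 ranged from -1.43 to 1.20, Lats2 from -0.16 to 0.17, Ankrd1 from -0.59 to 0.46, Ddx60 from -1.96 to 1.46 and Pfkp from -1.50 to 0.11. With the replicate block, 1 gene was called, Wwtr1 at -3.00 (adjusted p = 0.0046), and 741 genes passed unadjusted p under 0.05; the calls of Ctgf and Cyr61 against L12-ECKO held, and the other calls against L12-ECKO were not refitted. A list median counted as moved if it shifted by at least the SD of the L12YT-ECKO library medians. Of 25 alternatives, 6 moved the interferon median, 6 the p53 median and 1 the immediate-early median. With 1 library left out these medians ranged from 1.576 to 2.124, 0.817 to 1.217 and 0.763 to 0.93. Their lowest values over all alternatives, which include the smaller scale of a second logarithm, were 0.378, 0.141 and 0.101. The causes were not tested. Depth is unknown, and the spread of low genes limits what could be called.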

Other observations

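Antigen presentation and NF-kB genes were mixed, with library medians that overlapped between the groups. Of 16 tested genes of MHC class I presentation 12 lay higher and 4 lower, 3 of them higher at unadjusted p under 0.05 (background 4.13%). The median was 0.62, with 0.37 over L12YT-ECKO replicates 1 and 2 and 0.73 over replicates 3 and 4. Tap1, a subunit of the peptide transporter of the endoplasmic reticulum, was 10.26, 9.41, 10.65 and 8.97 in WT and 10.70, 10.70, 11.26 and 11.65 in L12YT-ECKO (limma adjusted p = 0.531). Its partner Tap2 was 5.26, 7.75, 9.05 and 6.89 in WT and 8.96, 9.14, 11.01 and 11.40 in L12YT-ECKO. Psmb9, an immunoproteasome subunit, was 4.66, 6.42, 7.33 and 6.19 in WT and 7.59, 7.66, 8.71 and 8.29 in L12YT-ECKO. H2-T23, a nonclassical class I gene, went the other way with no overlap, at 5.80, 3.64, 4.61 and 4.11 in WT and 3.50, 2.74, 0.82 and 1.16 in L12YT-ECKO. Of 13 tested inflammation and NF-kB genes 10 lay higher, 3 at unadjusted p under 0.05 (background 4.13%), with a median of 0.79. Rela, the p65 subunit, was 9.76, 8.75, 8.96 and 9.72 in WT and 10.02, 10.81, 10.25 and 10.31 in L12YT-ECKO, and Nfkbia, its inhibitor, was 12.19, 12.13, 12.19 and 12.10 in WT and 13.20, 12.54, 12.71 and 12.71 in L12YT-ECKO. Both were higher in every L12YT-ECKO library than in any WT library, with limma adjusted p of 0.754 and 0.758.

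Genes past the unadjusted threshold in the 2 directions had unlike median lengths, though of these genes only Wwtr1 was called. The median genomic span, from RefSeq gene models on GRCm38.p6, was 22.9 kb over all genes tested, 19.1 kb over the genes higher at unadjusted p under 0.05 and 38.6 kb over those lower. The quartiles of these 2 sets overlapped, at 9.3 to 46.5 kb for the higher and 15.7 to 79.4 kb for the lower. Among the genes whose groups did not overlap the median span was 16.5 kb for the higher and 32.2 kb for the lower. These are descriptions of the sets, with no test.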
